A study of Mus musculus with 6 samples.

Results

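Trp53 and 9 genes of the core p53 response (Cdkn1a, Zmat3, Ccng1, Phlda3, Mdm2, Trp53inp1, Sesn2, Gtse1 and Ei24) were followed in testes of ScAtrxKO mice, in which Sertoli cells lack the chromatin remodeller ATRX. They are the gene rows named TRP53, CDKN1A, ZMAT3, CCNG1, PHLDA3, MDM2, TRP53INP1, SESN2, GTSE1 and EI24 on the array, 10 of 30774 gene rows, and all 10 were among the 13026 rows detected on at least 1 array and tested. They were chosen on the difference between ScAtrxKO and wild-type in these same arrays, so their values are a description with no test. Whole testes of C57BL/6 males, 12 days old, were hybridized to Illumina MouseWG-6 v2.0 BeadChips, 3 from ScAtrxKO and 3 from wild-type mice. ScAtrxKO males carry floxed Atrx and AMH-Cre, which is driven in Sertoli cells. By design the other cells of the testis keep an intact Atrx gene, which these arrays could not check. The labels do not say whether the 3 samples of a genotype came from separate animals, and p-values measure only the spread between these samples.

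The p53 protein, encoded by Trp53, is a transcription factor that is kept scarce by the ubiquitin ligase Mdm2 and accumulates when DNA is damaged or a cell is under other stress. It binds DNA as a tetramer at response elements made of paired half-sites and switches on genes for cell cycle arrest, apoptosis, DNA repair and metabolic adaptation, Mdm2 among them, which closes a negative feedback loop. Its best-known target, Cdkn1a, encodes p21, an inhibitor of cyclin-dependent kinases through which the DREAM and RB complexes silence genes of the dividing cell. In the testis p53 is known for its part in the death of damaged germ cells.

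The letters of a p53 response element stood beside the start of several of these genes, and they are shown because the response element is what the group is named for. RefSeq windows of 300 bases (250 before and 50 from the start onward, GRCm38.p6) were at hand for 8 of the 10 genes, with 2 starts each for Cdkn1a and Gtse1. Zmat3 and Trp53inp1 had no window in the table. Sequence outside the windows was not searched, so an element elsewhere in or near a gene would not be seen. Both strands were searched for the consensus half-site of p53, which is 10 bases long, and for 2 adjoining half-sites with at most 1 mismatch over the 20 bases. This limit was set after matches had been seen. The upstream window of Cdkn1a (chr17:29090729-29091028, plus strand) held both, and the capitals mark first a half-site and then the 20-base element.
Cdkn1a upstream start: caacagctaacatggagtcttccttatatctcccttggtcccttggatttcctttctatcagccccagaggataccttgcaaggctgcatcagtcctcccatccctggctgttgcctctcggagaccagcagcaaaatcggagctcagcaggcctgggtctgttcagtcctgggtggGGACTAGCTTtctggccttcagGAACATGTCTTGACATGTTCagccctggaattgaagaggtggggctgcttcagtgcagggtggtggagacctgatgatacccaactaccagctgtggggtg
The 20-base element spans chr17:29090928-29090947, which is -51 to -32 counted from the start as 0, and departs from the consensus at its position 11. The half-site lies at -73 to -64. The window of the other Cdkn1a start, 2790 bases downstream, held neither.

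Ccng1 and Gtse1 also had a 20-base element with a single departure, shown with 15 bases on each side and the element in capitals.
Ccng1 (chr11:40755447-40755496, minus strand): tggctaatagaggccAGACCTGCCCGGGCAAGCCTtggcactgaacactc
Gtse1 downstream start (chr15:85859930-85859979, plus strand): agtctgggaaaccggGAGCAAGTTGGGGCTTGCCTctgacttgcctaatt
The element of Ccng1 lies at -195 to -176 and departs at position 5, and that of Gtse1 at -1 to 18, departing at position 10. Trp53, Mdm2 and Ei24 windows held a half-site alone, printed in the same way with the half-site in capitals.
Trp53 (chr11:69580269-69580308, plus strand): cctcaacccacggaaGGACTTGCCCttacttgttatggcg
Mdm2 (chr10:117710920-117710959, minus strand): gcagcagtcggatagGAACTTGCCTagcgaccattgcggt
Ei24 (chr9:36797320-36797359, minus strand): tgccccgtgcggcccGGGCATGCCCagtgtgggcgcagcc
The half-site began at -75 in Trp53, at -186 in Mdm2 and at -10 in Ei24.

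Over all 32851 windows of 27025 genes, the half-site was found in 8.36% of windows and 9.55% of genes, and here in 6 of 8 genes. The 20-base element with at most 1 mismatch was in 29 windows, 0.0883% of all, and in 0.107% of genes, and here in 3 of 8 genes. In the windows of Phlda3 and Sesn2 neither was found, and the closest stretch of 20 bases in each had 5 mismatches. The GC box GGGCGG was in the windows of 5 of 8 genes, against 38.2% of all genes, and TATAA in 2 of 8, against 28%. TTTGAA, the core of the element at which DREAM is known to bind, was in 0 of 8 genes, against 20.2% of all genes. Each was searched on both strands. The Cdkn1a windows differed in makeup, with 2 CG dinucleotides and 54.7% GC upstream against 23 and 64.7% downstream, where 2 GC boxes were found. A match of letters is a description of the sequence and was not tested for binding.

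**Figure D1:**
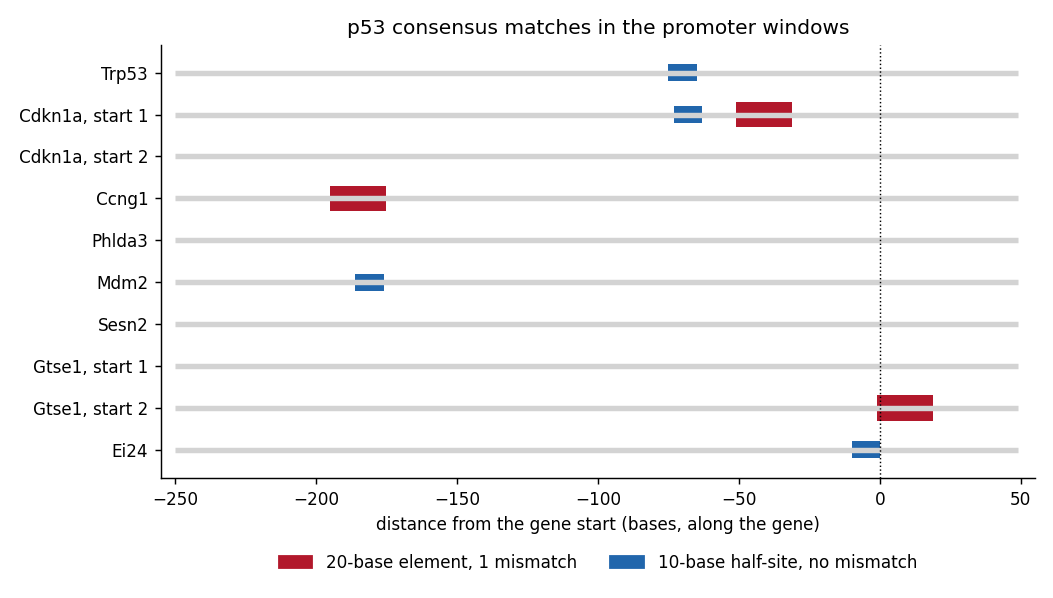
Position of p53 consensus matches in the promoter windows of 8 genes. The x axis is the distance in bases from the gene start along the gene, each grey line is 1 window, red boxes are 20-base elements with 1 mismatch and blue boxes are 10-base half-sites with no mismatch; Cdkn1a, Ccng1 and Gtse1 carry the 20-base element, and the elements of Cdkn1a and Gtse1 lie at 1 start of each gene.

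On the arrays, the genes fell into 3 sets. Cdkn1a, Zmat3, Ccng1 and Phlda3 were called higher in ScAtrxKO testes (limma, adjusted p under 0.05, fold change of at least 1.5). Trp53inp1 and Ei24 lay above all wild-type arrays on all ScAtrxKO arrays, by less than that, and Trp53, Gtse1, Sesn2 and Mdm2 overlapped between the genotypes. Of the 10, 4 were called higher and 0 lower, where 1.02% of all tested rows were called higher and 0.276% lower. At the adjusted p alone 6 were higher and 0 lower, against 7.47% and 5.50% of all rows, and the 6 genes whose genotypes did not overlap, all of them higher, stand against 16.2% of all rows that were higher in this way. Nothing is read from these counts, since the genes were chosen on this contrast. Their median log2 fold change was 0.32, against -0.01 over all tested rows.

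**Figure D2:**
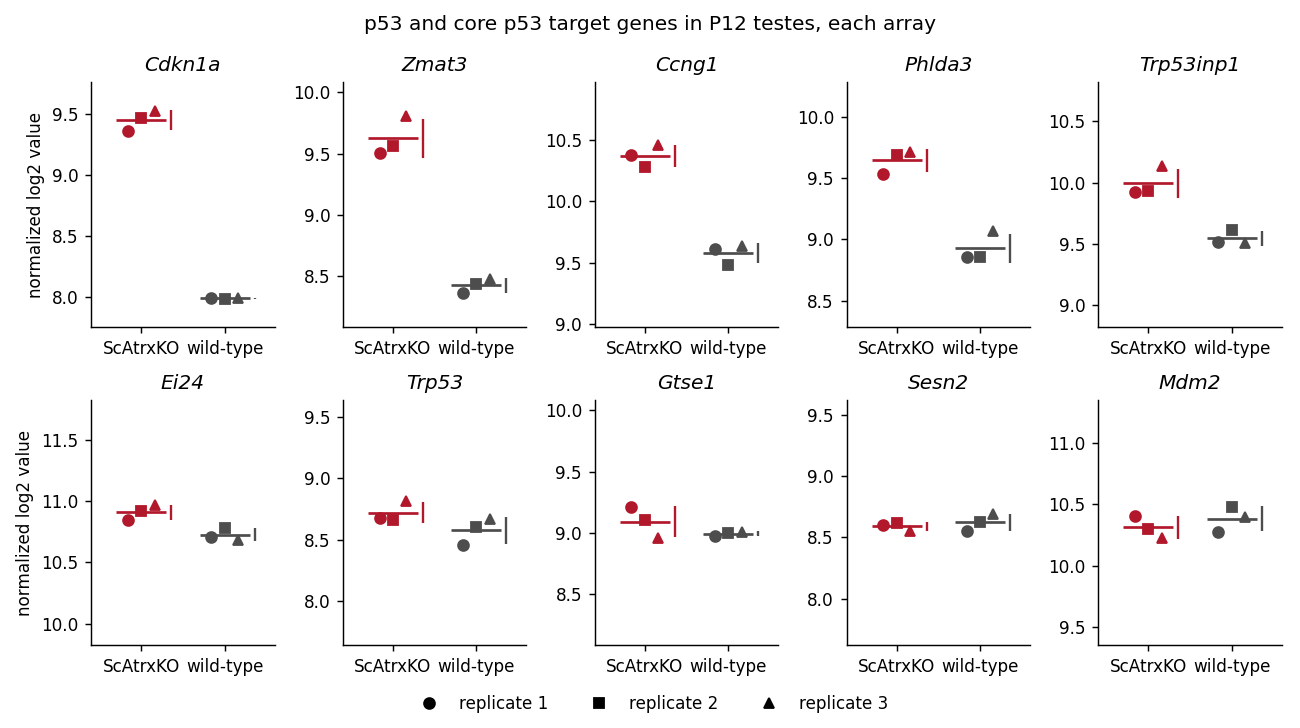
Normalized log2 value of p53 and core target genes on each array, with ScAtrxKO (red) left of wild-type (grey) in each panel, 3 arrays a genotype. Symbols give the replicate number, horizontal lines the mean and vertical lines the mean ± SD; panels cover ranges of equal height but different position. Cdkn1a, Zmat3, Ccng1, Phlda3, Trp53inp1 and Ei24 have all ScAtrxKO arrays above all wild-type arrays, and the other 4 genes overlap.

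Trp53 (chr11:69580348-69591873) mostly did not count as detected by its detection p. Its intensities were nonetheless above those of Cdkn1a in wild-type testes, which counted as detected on all 3 arrays there, by values of unstated origin (below). Its normalized log2 values, on the variance-stabilized scale of the authors, were 8.68, 8.66 and 8.82 in ScAtrxKO testes, against 8.46, 8.60 and 8.67 in wild-type testes. The lowest ScAtrxKO array lay just under the highest wild-type array, so the genotypes overlapped. A log2 fold change of 0.14 resulted (standard error 0.07). The detection p was under 0.01 on 1 ScAtrxKO and 0 wild-type arrays, at background-subtracted intensities of 251.3, 332.2 and 406.0 in ScAtrxKO and 188.1, 239.0 and 265.2 in wild-type testes. No wild-type array counted as detected, and no fold is given. The arrays measured the transcript and not the p53 protein, whose level is known to be set mainly by its turnover.

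Mdm2 (chr10:117688875-117710758), the ubiquitin ligase that marks p53 for degradation and is itself a p53 target, did not separate the genotypes. It had 10.41, 10.30 and 10.22 in ScAtrxKO testes, against 10.28, 10.48 and 10.40 in wild-type testes. Each genotype had an array above and an array below arrays of the other. With a standard error of 0.07, the log2 fold change was -0.07, and it stayed between -0.12 and -0.02 over the 16 alternative settings.

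The detection p of these genes needs care. Over all rows and arrays 78.2% of the detection p-values lay within 6e-06 of a whole step of 1 in 936, as a rank among that many control probes would, and 25.5% of the tested rows had at least 1 value off the steps. Trp53 was off the steps on 6 of 6 arrays, Mdm2 and Gtse1 on 5, Cdkn1a on 3, all wild-type, and Sesn2 on 1. On wild-type replicate 1, Mdm2 was listed at a detection p of 0.0150 with an intensity of 1254.9. No source used here says how values off the steps were made. On how many arrays Trp53, Mdm2 and Gtse1 count as detected depends on them. The 3 wild-type detections of Cdkn1a also rest on such values, at 1e-05, 0.00058 and 0.00088. On the ScAtrxKO arrays Cdkn1a had a detection p of 0. Mdm2 on wild-type replicate 2 and Gtse1 on ScAtrxKO replicate 3 had a detection p of 0, which is on a step and passes the filter. Trp53 passed it only on a value off the steps.

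Of the genes for cell cycle arrest, Cdkn1a (chr17:29090979-29100722) was among the highest changes on the arrays. Its normalized log2 values were 9.36, 9.46 and 9.52 in ScAtrxKO testes, against 8.0, 7.99 and 7.99 in wild-type testes. The wild-type arrays hardly differed from each other, and the genotypes were far apart. The mean was 9.45 ± 0.08 in ScAtrxKO and 7.99 ± 0.01 in wild-type testes (SD, n = 3 each), a log2 fold change of 1.46 (standard error 0.05), or 2.74-fold, the 7th highest of all tested rows. On the linear scale the background-subtracted intensities were 549.6, 797.1 and 834.3 in ScAtrxKO testes, against 65.1, 64.1 and 64.5 in wild-type testes, and the ratio of the means was 11.3. These intensities are not scaled between arrays, whose mean intensity over all rows was 349.8, 469.1 and 457.6 in ScAtrxKO and 368.1, 375.8 and 380.7 in wild-type testes, so ratios of intensity run high. For Mdm2 and Sesn2 they were 1.08 and 1.11, where the normalized values gave 0.95 and 0.98. The variance stabilization compresses differences between weak signals, which is why both scales are given.

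Ccng1 (chr11:40748552-40755309) encodes cyclin G1, a p53 target that brings a phosphatase to Mdm2. It had 10.38, 10.28 and 10.46 in ScAtrxKO testes, against 9.61, 9.48 and 9.63 in wild-type testes. On each ScAtrxKO array it was above each wild-type array, by more than the spread within either genotype. The log2 fold change was 0.80 (standard error 0.06), or 1.74-fold, and the ratio of mean intensities was 2.21.

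Gtse1 (chr15:85859691-85876573) encodes a protein of G2 and S phase that binds p53 and takes it out of the nucleus. It had 9.21, 9.11 and 8.96 in ScAtrxKO testes, against 8.97, 9.0 and 9.01 in wild-type testes. Replicate 3 of ScAtrxKO lay below all wild-type arrays and the other ScAtrxKO arrays above them. Its log2 fold change was 0.10 (standard error 0.06), with 2 ScAtrxKO and 0 wild-type arrays detected, and no fold is given. Gtse1 carries a 20-base element at its downstream start, as Cdkn1a and Ccng1 do in their windows, and its genotypes overlapped where those of Cdkn1a and Ccng1 did not.

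Zmat3 (chr3:32334792-32365665), a zinc finger protein that binds RNA and acts in growth control and apoptosis, followed Cdkn1a most closely within the group. Its values were 9.50, 9.56 and 9.80 in ScAtrxKO testes, against 8.36, 8.44 and 8.48 in wild-type testes. All ScAtrxKO arrays were more than 1 log2 unit above all wild-type arrays. The means were 9.62 ± 0.16 in ScAtrxKO and 8.43 ± 0.06 in wild-type testes (SD, n = 3 each), a log2 fold change of 1.20 (standard error 0.08), or 2.30-fold. The intensities were 627.1, 877.6 and 1073.7 in ScAtrxKO testes, against 157.0, 185.2 and 197.6 in wild-type testes, with a ratio of means of 4.78.

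Phlda3 (chr1:135766085-135769134) encodes a small lipid-binding protein that restrains the survival kinase AKT. It had 9.53, 9.69 and 9.71 in ScAtrxKO testes, against 8.85, 8.86 and 9.06 in wild-type testes. The genotypes did not overlap, and wild-type replicate 3 was the nearest to the ScAtrxKO arrays. The log2 fold change was 0.72 (standard error 0.07), or 1.65-fold, and the ratio of mean intensities was 2.38.

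Trp53inp1 (chr4:11156441-11174379), a nuclear stress protein that takes part in apoptosis and autophagy, had 9.92, 9.93 and 10.13 in ScAtrxKO testes, against 9.51, 9.62 and 9.51 in wild-type testes. It was higher on each ScAtrxKO array. This gave a log2 fold change of 0.45 (standard error 0.07), or 1.37-fold, which is under the fold limit.

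Ei24 (chr9:36779153-36797334), a protein of the endoplasmic reticulum first found as a p53-induced gene, had 10.84, 10.92 and 10.97 in ScAtrxKO testes, against 10.71, 10.78 and 10.68 in wild-type testes. The lowest ScAtrxKO array was only a little above the highest wild-type array. This was a log2 fold change of 0.18 (standard error 0.05), or 1.14-fold. It passed the adjusted p in 4 of the 16 alternative settings.

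Sesn2 (chr4:132492804-132510456), a leucine-binding sestrin that holds back the growth kinase mTORC1, had 8.60, 8.62 and 8.55 in ScAtrxKO testes, against 8.55, 8.63 and 8.69 in wild-type testes. The arrays of both genotypes were interleaved. The log2 fold change was -0.03 (standard error 0.05), and it moved to 0.003 without wild-type replicate 3.

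The highest and lowest array of each gene within its genotype is given as a description. No share over all rows was taken, so the counts are not read as a trait of these genes. Of the 10 genes, 7 were highest on replicate 3 among the ScAtrxKO arrays, and the other 3, Gtse1, Mdm2 and Sesn2, were lowest on it. Among wild-type arrays 6 genes were highest on replicate 3 and 6 lowest on replicate 1. Over the 6 arrays, Pearson's r with Cdkn1a was 0.993 for Zmat3, 0.986 for Ccng1, 0.978 for Phlda3, 0.958 for Trp53inp1 and 0.912 for Ei24. It was 0.690 for Trp53, 0.494 for Gtse1, -0.346 for Sesn2 and -0.454 for Mdm2. The 6 arrays form 2 genotype clusters, so these r mostly restate the difference between the genotypes and are given as a description.

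The 5 tested rows outside the group with the highest r to Cdkn1a were SPON2, NOPE, TIMP1, A830059I20RIK and XDH, each with r between 0.998 and 0.999 over the 6 arrays. Spon2 is a secreted matrix protein, NOPE is a synonym of Igdcc4 in RefSeq, Timp1 inhibits matrix metalloproteinases, A830059I20RIK is a synonym of Fam181b, and Xdh is the xanthine oxidase of purine breakdown. SPON2 had 10.59, 10.60 and 10.70 in ScAtrxKO testes, against 9.27, 9.32 and 9.27 in wild-type testes. Its wild-type arrays were close together, as those of Cdkn1a were. A830059I20RIK was detected on 3 ScAtrxKO and 0 wild-type arrays.

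The size of the changes depended on the normalization more for some of these genes than for others. For Cdkn1a the log2 fold change was 1.43 with neqc, 3.28 with log2 intensities and quantile normalization and 3.27 with median scaling, against 1.46 with the deposited values. For Zmat3 these were 1.44, 2.02 and 2.03, against 1.20, so neqc put Zmat3 level with Cdkn1a and the log2 intensities put Cdkn1a well ahead. Ccng1 gave 1.21, 0.95 and 0.94 and Phlda3 1.02, 1.04 and 1.04. Trp53inp1 had 0.71 with neqc, the only alternative in which it passed the fold limit. Cdkn1a, Zmat3, Ccng1 and Phlda3 were called in all 16 alternatives that kept the fold limit, and Trp53, Gtse1, Sesn2 and Mdm2 passed the adjusted p in none of theirs (15 for Trp53 and Gtse1, 16 for the others).

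**Figure D3:**
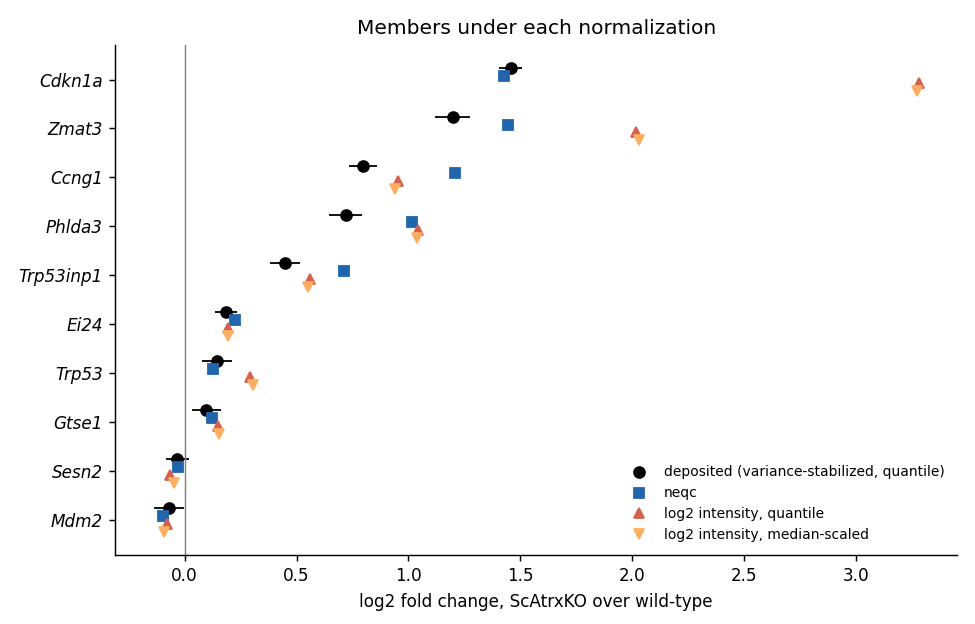
Log2 fold change of ScAtrxKO over wild-type for each gene under 4 normalizations. Black circles are the deposited variance-stabilized values with their standard error, squares are neqc, triangles are log2 intensities with quantile normalization (up) or median scaling (down). Cdkn1a ranges from 1.43 to 3.28, while Ei24, Trp53, Gtse1, Sesn2 and Mdm2 stay between -0.10 and 0.31 throughout.

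Other p53 targets, in lists chosen by textbook function, were higher in part and lower in none. Of 48 listed genes outside the group, 37 were tested, 16 rose at an adjusted p under 0.05 from limma (43.2%, against 7.47% of all rows), 0 fell (2 were lower at an unadjusted p under 0.05) and 21 did not pass. Of the 16, Psrc1 and Fas were detected on no wild-type array. Past the fold limit 2 were called higher, where 1.02% of all rows were, and the median log2 fold change of the 37 was 0.11. Among genes of cell cycle arrest 3 of 8 rose, among genes of apoptosis 6 of 14, among genes of DNA repair 2 of 6, and among genes of metabolism and stress 5 of 9. The lists were chosen with earlier results of these data known, and the counts are not independent evidence.

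In the arrest list Plk2, a polo-like kinase, had a log2 fold change of 0.37 (standard error 0.05, limma adjusted p = 0.00341) and Tob1, an antiproliferative protein, one of 0.40 (standard error 0.06, adjusted p = 0.00726). In the apoptosis list the autophagy regulator Dram1, on the row 1200002N14RIK, had 8.79, 9.05 and 9.17 in ScAtrxKO testes, against 8.37, 8.48 and 8.31 in wild-type testes. Its ScAtrxKO arrays were more spread out than its wild-type arrays and did not overlap them, and it rose by 0.62 (standard error 0.09, adjusted p = 0.00566 from limma). It was under the fold limit, which is 0.585 on the log2 scale, when ScAtrxKO replicate 3 (0.534) or wild-type replicate 3 (0.578) was left out and with neqc (0.583). The other genes of this list are named after their values were seen. Casp6, Bax, Bbc3 and Apaf1 rose by 0.44, 0.41, 0.33 and 0.23, while Fas, with 3 ScAtrxKO and 0 wild-type arrays detected, is given only as at least 1.12-fold higher in ScAtrxKO testes, against the weakest detected signal (limma adjusted p = 0.0440). Bid and Siva1 had log2 fold changes of -0.17 and -0.16 and did not pass, and Pmaip1 and Perp were detected on no array.

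In the repair list the DNA polymerase gene Polk rose by 0.45 (standard error 0.05, adjusted p = 0.00101 from limma) and the excision repair nuclease Ercc5 by 0.42 (standard error 0.05, adjusted p = 0.00230). In the metabolism list Dcxr, a carbonyl reductase, had 8.62, 8.53 and 8.54 in ScAtrxKO testes, against 7.97, 7.96 and 8.0 in wild-type testes. It rose by 0.589 (standard error 0.04, adjusted p = 2.84e-04 from limma), only just past the fold limit, and was under it when ScAtrxKO replicate 1 (0.559) or wild-type replicate 2 (0.579) was left out. Under neqc it rose by 0.38, also under the limit, and with log2 intensities and quantile normalization by 1.91.

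**Figure D4:**
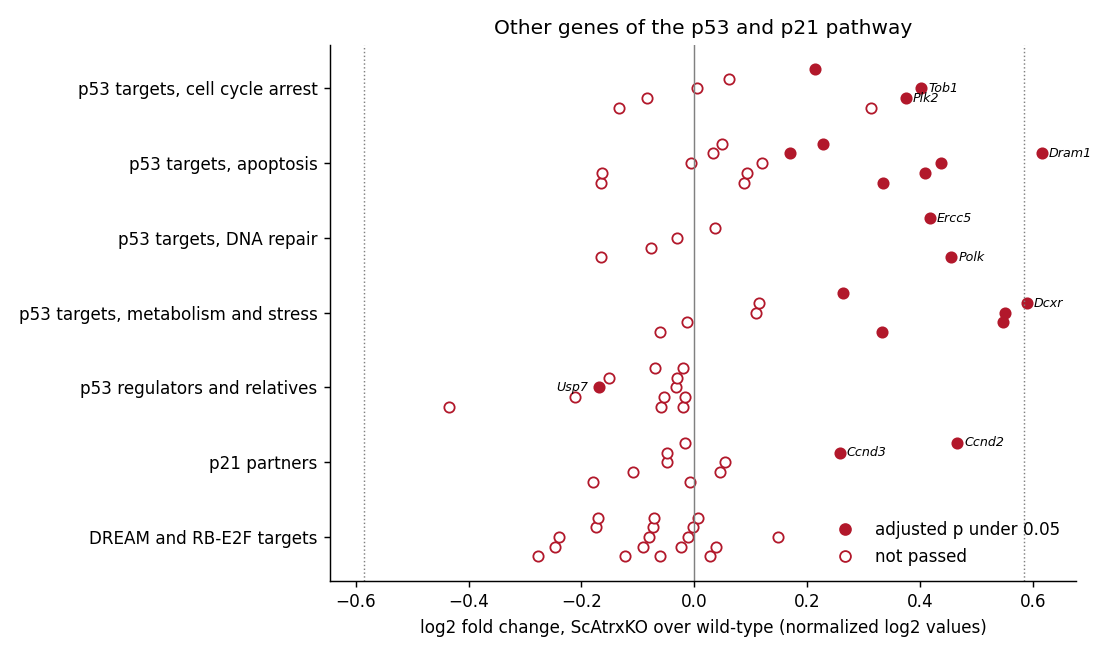
Log2 fold change of ScAtrxKO over wild-type for the tested genes of 7 lists (1 row each), filled where the adjusted p was under 0.05 and open where not. Dotted lines mark the fold limit of 1.5. Filled points lie to the right of 0 in the 4 lists of p53 targets and among p21 partners, a single filled point (Usp7) lies to the left, and the DREAM and RB-E2F list has none.

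Among 12 tested regulators of the p53 protein, 1 fell and 0 rose at the adjusted p. Of all rows, 5.50% fell and 7.47% rose in this way, so counts this small are not read as a result. At an unadjusted p under 0.05, 0 regulators were higher and 3 lower. All 12 had a log2 fold change below 0, as did 54.8% of all tested rows, and their median was -0.06. Usp7, a deubiquitinase of p53 and Mdm2, fell by 0.17 (standard error 0.04, adjusted p = 0.0298 from limma), a call that was lost in 11 of the 16 alternatives, among them each array left out in turn. The deacetylase gene Sirt1 had -0.21 (standard error 0.07, adjusted p = 0.0786 from limma) and did not pass. Among the alternatives it passed only with array weights (limma adjusted p = 0.0344) and without wild-type replicate 3 (0.0392).

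Among the partners of p21, the cyclins, kinases and replication clamp that it binds, 2 of 10 rose (7.47% of all rows did), 0 fell (5.50% of all rows, and 1 partner at an unadjusted p under 0.05) and 8 did not pass. Ccnd2, a D-type cyclin, had 9.56, 9.52 and 9.72 in ScAtrxKO testes, against 9.04, 9.14 and 9.23 in wild-type testes. It rose by 0.47 (standard error 0.07, limma adjusted p = 0.00536), and the related cyclin gene Ccnd3 by 0.26 (standard error 0.07, adjusted p = 0.0418), a call lost in 10 of 16 alternatives.

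The genes that DREAM and RB are known to repress when p21 is made showed no call among those tested. Of 25 listed genes 7 were detected on no array and left out. Not all of these were dim, as Prc1 had a normalized mean of 10.71 in ScAtrxKO and 10.63 in wild-type testes. Of the 18 tested, 0 rose and 0 fell at an adjusted p under 0.05 from limma, against 7.47% and 5.50% of all rows. At an unadjusted p under 0.05, 1 was higher and 3 were lower. Counts this small are not read as a result. The log2 fold changes of the 18 ran between -0.28 and 0.15 with a median of -0.07. E2f1, the transcription factor of S phase entry, had -0.28 (standard error 0.08, adjusted p = 0.0596 from limma) and passed in 3 of 16 alternatives, at an adjusted p of 0.00944 without ScAtrxKO replicate 1. The mitotic checkpoint kinase Bub1b had -0.17 (standard error 0.05, adjusted p = 0.0583 from limma) and passed only with array weights (adjusted p = 0.0481).

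The arrays measured whole testes, where fewer cells of a type and less RNA per cell cannot be told apart. At the adjusted p, 7.47% of all rows were higher and 5.50% lower, against which the marker counts are to be read. All 10 tested Sertoli cell markers were detected on all 6 arrays, and none passed (2 were higher and 0 lower at an unadjusted p under 0.05), with a mean normalized log2 value between 10.72 and 10.81 in ScAtrxKO and between 10.71 and 10.78 in wild-type testes. Among them Aard sat at 14.72, the highest value of the normalized scale, on all 6 arrays and could not differ. Of 11 tested macrophage markers 10 were higher, with a mean between 8.83 and 8.95 in ScAtrxKO and between 8.28 and 8.47 in wild-type testes, Cd163 being detected on no array. Of 6 mesenchymal markers 4 were higher (means of 10.50 to 10.70 in ScAtrxKO and 9.83 to 10.05 in wild-type testes), as were 4 of 6 endothelial, 3 of 7 Leydig, 1 of 5 myoid and 1 of 4 erythroid markers. Of 8 germ cell markers 4 were lower (means of 9.46 to 9.51 in ScAtrxKO and 9.63 to 9.82 in wild-type testes). At an unadjusted p under 0.05, 7 germ cell markers were lower and 1, Stra8, was higher, and 1 myoid marker was lower. Nanos3, among the 4, was detected on 0 ScAtrxKO arrays, and Csf1r, Aif1 and Lhcgr, among the higher markers, on 0 wild-type arrays. The part of these cell types in the levels of Cdkn1a and the other p53 targets was not tested.

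The arrays held 10493 to 10917 detected rows in ScAtrxKO and 10624 to 10803 in wild-type testes. With 3 arrays a genotype the precision is limited, and the smallest two-sided p of an exact permutation test on any 1 gene is 0.1. Atrx gave no check of the genotypes, as its row was detected on 0 of 6 arrays, with intensities of 2.4, 3.4 and 3.3 in ScAtrxKO and 5.6, 2.2 and 2.8 in wild-type testes.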

How the data were processed

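Biotin-labelled cRNA of 6 testis samples was hybridized to Illumina MouseWG-6 v2.0 BeadChips. In GenomeStudio (version not given in the sources used here) the authors averaged probes to 1 row a gene after background subtraction, and they deposited an intensity on a linear scale and a detection p-value for each row and array. Variance-stabilized and quantile-normalized values from lumi, close to a log2 scale, were also deposited. Their tables of called genes and GO terms hold only their own comparisons and were not used. Columns named M were read as ScAtrxKO samples by their number, and 0 sample columns were left unmapped.

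The normalized log2 values were fitted by genotype alone with lmFit and eBayes of limma 3.58.1, in R 4.3.3. Following the methods of the study, rows with a detection p under 0.01 on at least 1 array were tested, p-values were adjusted by Benjamini-Hochberg over all 13026 of them, and calls required an adjusted p under 0.05 with at least 1.5-fold change. The procedure was tested on simulated data. The named genes were the 10 members, from each other list the called genes (at most 4) or the 2 of smallest p, the 5 rows most correlated with Cdkn1a, and Atrx. Further genes, of the apoptosis list, the relatives of the members, the markers and the alternatives, were named after their values were seen. The members and lists were chosen with earlier results of these data known. Alternatives were neqc (offset 16, run on intensities whose background had already been subtracted), log2 intensities floored at 1 with quantile normalization or median scaling, other detection filters, the series value table, an intensity trend with robust estimation, array weights, no fold limit, a block for the replicate number, and leaving out each array. Quantile normalization before the floor was added after the data were seen. Promoter windows were RefSeq's (GRCm38.p6), and gene positions are of the same build.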

Additional observations from a re-analysis of the deposited data

How the results depend on the processing

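The count of 4 called members held in every alternative with the fold limit except neqc, where Trp53inp1 made it 5, and was 6 with no fold limit. Over all tested rows 169 were called with the deposited normalization, 604 with log2 intensities and quantile normalization, 601 with median scaling, 605 with quantile normalization before the floor (chosen after seeing the data), 1690 with no fold limit, and 144 to 194 when single arrays were left out. In the 7 gene lists together 2 of 77 tested genes were called, where 1.3% of all tested rows were. The count was 5 with neqc and 11 with each of the 2 log2 scalings and with quantile normalization before the floor. It was 19 with no fold limit and 1 to 3 when single arrays were left out. These counts are to be read beside the calls over all rows, which also rose under the log2 scalings. Dcxr was lost without ScAtrxKO replicate 1 or wild-type replicate 2 and Dram1 without ScAtrxKO replicate 3 or wild-type replicate 3, while neqc lost both and called Casp6, Ccnd2, Ephx1, Ercc5 and Fdxr. Fdxr was called beside Dcxr without ScAtrxKO replicate 3, Atr beside Dcxr without wild-type replicate 3, and Ephx1 beside both without wild-type replicate 1. The cause of these differences was not tested. Other p53 targets higher at the adjusted p numbered 13 to 16 over the alternatives. With the replicate block 179 rows were called, the 4 called members were still called, and Ei24 lost its adjusted p. Same-numbered samples deviated together hardly at all, with correlations of 0.0029, 0.047 and 0.08, and not every sample correlated best with its own number, so the numbers were not taken as pairs. Allowing 2 mismatches, 0.798% of windows and 0.94% of genes held the 20-base element, with the same 3 genes among the members. Weak signals limit the size of a fold change: Cdkn1a was at an intensity near 65 in wild-type testes, where the scale sets the value.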

Other observations

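Relatives of these genes, a list chosen after the data were seen, showed no common direction. The list held 18 genes of the same families or, for Trp53i11, Trp53bp2 and Trp53rk, sharing only part of a name. Of the 18 genes 14 were tested, 2 rose and 2 fell at an adjusted p under 0.05 from limma (7.47% of all rows rose and 5.50% fell), and 10 did not pass. Cdkn1c, which encodes p57, a cyclin-dependent kinase inhibitor related to p21, rose by 1.16 on the log2 scale (adjusted p = 2.79e-04 from limma) and Phlda1 by 0.29 (adjusted p = 0.0472), while Phlda2 changed by -0.31 (adjusted p = 0.00466) and Zmat1 by -0.19 (adjusted p = 0.0349). The closest relatives of the other genes did not pass, with log2 fold changes of 0.11 for Sesn1, -0.17 for Sesn3, -0.06 for Ccng2, 0.20 for Trp53inp2 and -0.02 for Mdm4.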
